A study of Mus musculus with 7 samples.

Results

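Innate immune cells sense infection and tissue injury through pattern recognition receptors, and 10 genes of this system were chosen by symbol: the toll-like receptors Tlr2 and Tlr4, the co-receptor Cd14, the adaptor Myd88, the C-type lectin receptors Clec4d, Clec4e, Clec4n and Clec7a, the inflammasome sensor Nlrp3 and the amplifying receptor Trem1. Of these 10 members, 9 had a row in all 7 count matrices, which shared 27514 genes. Clec7a (Dectin-1) matched no row and was not analysed here. The rule is a list of symbols with no threshold on measured values, although the list was drawn up with earlier results of these data known. None of the members served as a cell type marker.

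Toll-like receptors at the cell surface bind microbial products and molecules released from damaged cells, and signal through the adaptor protein encoded by Myd88 to NF-kappaB. C-type lectin receptors of the Clec4 group signal through the ITAM adaptor Fcer1g and the kinase Syk, Nlrp3 assembles with Pycard and caspase-1 into the inflammasome that matures interleukin-1beta, and Trem1 amplifies inflammatory signals through Tyrobp. In the infarcted heart these receptors are studied on the neutrophils that enter first and on the monocytes and macrophages that follow.

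The series followed cardiac leukocytes by single-cell RNA-seq in C57BL6/J mice whose left descending coronary artery was tied off for good, given as male for the 6 heart libraries. In the CD45+ experiment, total leukocytes were sorted from hearts without infarct (steady state; 5 mice) and at day 1 (5 mice), day 3 (5 mice), day 5 (5 mice) and day 7 (3 mice) after infarction, with 1 pooled library per time. In the CD11b+ experiment, myeloid cells of day 1 (5 mice), day 3 (5 mice) and day 5 (3 mice) hearts were stained with hashtag and surface antibodies and run as 1 pool, in which hashtags 1, 2 and 3 mark the 3 days. A further pool held CD11b+ cells of blood and heart from mice aged 8 to 10 weeks. These were 3 unoperated controls, 3 sham-operated mice at day 1 and 3 at day 3, and 5 infarcted mice at each of those 2 days. The 7 hashtags of this pool were not tied to blood, heart or surgery by the labels, so they enter no test. Their levels are only described, by hashtag, in ratios between the classes and in correlations. In the 6 heart libraries, blood cells were marked by an anti-CD45.2 antibody injected before death and left out at the sort. The hearts of these 6 were digested with enzymes while those of the last pool were not, and the CD45+ libraries went through a step that lowered the number of neutrophils. Changes over days were therefore taken within each experiment. Where sums of different experiments are set side by side or correlated, the values only describe those sums.

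After filters, 639 cells of steady state, 527 of day 1, 844 of day 3, 946 of day 5 and 1795 of day 7 were used from the CD45+ libraries, 4282 from the CD11b+ heart pool and 9999 from the blood and heart pool. Total UMIs (unique molecular identifiers, counting captured RNA molecules) ran from 3655070 in the CD45+ day 1 library to 44623600 for day 5 of the CD11b+ pool, and median UMIs per cell from 3595 to 24355.5. Mitochondrial RNA above the limit of 10% removed 17.4% of the barcodes of the CD11b+ pool and at most 5.12% of those of any other library. CD45+ libraries shared at most 2 barcodes with one another, and the 2 antibody-stained pools shared 12. Cells were clustered in each of the 3 experiments, and clusters were named from lists of markers. Neutrophil clusters of the CD11b+ pool had a median of 307 and 336 Ly6G antibody UMIs per cell, against 94.5 to 122 in its other clusters. In the blood and heart pool the neutrophil clusters had medians of 19, 19 and 22. Its monocyte/macrophage clusters had medians of 0 to 1, except 1 of 108 cells with a median of 23.5. In the monocyte/macrophage class 241 of the 250 cells of CD45+ day 1 came from a single cluster, which also held transcripts of neutrophil markers. The 20 neutrophil markers summed to 25034 CPM there (UMIs scaled to the same total in each sum). They summed to 203 at steady state, 3140 at day 3, 805 at day 5 and 606 at day 7. Of the day 1 sum, S100a8 alone gave 12510 CPM (43.1 at steady state) and Retnlg 318 (4.91). Csf3r stood at 24.4 CPM (20.7 at steady state) and Cxcr2 at 3.79 (1.03). In the CD11b+ pool the 20 markers summed to 3406, 1126 and 844 CPM in the monocytes/macrophages of day 1, 3 and 5. The 24 monocyte/macrophage markers summed to between 5602 and 11759 CPM in the neutrophils, with Timd4 at 0 in every sum.

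The sequences before the transcription starts of Trem1, Clec4e, Clec4d and Tlr2 are shown because the first 3 of these genes had the largest ratios of day 1 to steady state in monocytes/macrophages and the last carries a kappaB match. Each is the 250 bases before the start in RefSeq (GRCm38.p6), 5′ to 3′ on the gene's strand: chr17:48232489-48232738 on the plus strand, chr6:123289872-123290121 on the minus strand, chr6:123261857-123262106 on the plus strand and chr3:83841609-83841858 on the minus strand, in that order. Capitals mark matches on either strand to a kappaB motif, to the AP-1 motif TGANTCA, to the C/EBP motif TTNNGNAA or to the PU.1 motif GGAAGT, and overlapping matches run together.
Trem1: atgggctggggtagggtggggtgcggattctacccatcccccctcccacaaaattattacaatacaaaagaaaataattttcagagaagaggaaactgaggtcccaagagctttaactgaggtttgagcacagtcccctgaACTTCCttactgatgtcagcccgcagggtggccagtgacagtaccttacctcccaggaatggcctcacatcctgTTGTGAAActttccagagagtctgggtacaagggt
Clec4e: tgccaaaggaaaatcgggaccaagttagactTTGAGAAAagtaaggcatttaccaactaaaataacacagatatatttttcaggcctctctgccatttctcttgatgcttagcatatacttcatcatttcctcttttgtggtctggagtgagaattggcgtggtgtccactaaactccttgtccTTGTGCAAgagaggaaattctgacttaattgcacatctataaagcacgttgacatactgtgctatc
Clec4d: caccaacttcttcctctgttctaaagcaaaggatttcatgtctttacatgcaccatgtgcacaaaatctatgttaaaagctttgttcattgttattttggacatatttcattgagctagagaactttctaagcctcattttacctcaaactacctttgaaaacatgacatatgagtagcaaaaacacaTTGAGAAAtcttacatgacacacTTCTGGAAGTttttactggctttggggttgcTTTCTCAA
Tlr2: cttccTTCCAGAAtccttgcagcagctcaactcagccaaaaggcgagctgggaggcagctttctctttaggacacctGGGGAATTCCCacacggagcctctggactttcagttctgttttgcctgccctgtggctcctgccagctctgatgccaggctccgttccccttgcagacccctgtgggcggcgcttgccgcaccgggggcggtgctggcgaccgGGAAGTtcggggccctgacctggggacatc
RefSeq entries were found for 6 of the 9 members (Tlr2, Myd88, Clec4d, Clec4e, Nlrp3 and Trem1). The C/EBP motif matched in 5 of the 6, all but Myd88, beside 36.9% of all 32851 mouse promoters of this length. Clec4d held 3 such matches, 1 of which overlaps its PU.1 match, and Clec4e held 2. The PU.1 motif matched in Tlr2, Clec4d and Trem1 (19.7% of all promoters), the kappaB motif in Tlr2 and Nlrp3 (7.25%), and the AP-1 motif in none of the 6 (6.75%). These matches describe the letters in this window only. The Tlr2 window reaches into the Tlr2 gene of GENCODE M21 (chr3:83836272-83841767, minus strand). Part of it, with the PU.1 match, thus lies after the start in that annotation.

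On GRCm38 with GENCODE M21, Clec4n (chr6:123229843-123247021, plus strand), Clec4d (chr6:123262111-123275265, plus) and Clec4e (chr6:123281789-123289870, minus) are neighbours on chromosome 6, with 15.1 kb between Clec4n and Clec4d and 6.52 kb between Clec4d and Clec4e. Tlr2 lies at chr3:83836272-83841767 (minus), Tlr4 at chr4:66827584-66930284 (plus), Nlrp3 at chr11:59541568-59566956 (plus), Trem1 at chr17:48232768-48246924 (plus) and Myd88 at chr9:119335934-119341411 (minus). Myd88 overlaps Slc22a14 on its own strand and Acaa1a on the other, and how reads in the shared stretch were counted was not examined.

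In the CD45+ experiment, summed over its 5 libraries, transcripts of most members were concentrated in neutrophils and monocytes/macrophages. Trem1 stood at 1356 CPM in the 427 neutrophils, 71.1 CPM in the 2711 monocytes/macrophages, 46.1 CPM in the 161 dendritic cells, and 8.25 to 12.9 CPM in the 1021 B cells, 142 T cells and 91 NK cells. Clec4e stood at 2005 CPM in neutrophils, 563 in monocytes/macrophages, 101 in dendritic cells and 35.6 to 58.0 CPM in the lymphoid classes. Nlrp3 ran from 645 CPM in neutrophils through 209 in monocytes/macrophages and 93.9 in dendritic cells to 16.6 CPM in NK cells. Each of these 3 genes followed the same order of myeloid classes. Tlr4 had 61.4 CPM in neutrophils and 15.6 CPM in monocytes/macrophages, with 2 UMIs in all B cells and none in T cells. Tlr2 differed from the other members in that its 410 CPM in neutrophils lay under the 429 CPM in monocytes/macrophages. Cd14 was found in every class, at 11283 CPM in neutrophils, 4501 in monocytes/macrophages, 1290 in dendritic cells and 303 CPM in B cells. The classes hold different numbers of cells from each day, so these sums describe the libraries as collected.

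Set side by side within the same library or hashtag, neutrophils and monocytes/macrophages gave 13 pairs of levels. Trem1 was higher in neutrophils in 13 of 13, by a median of 10.1 times and a range of 5.59 to 34.1. Clec4d (median 5.13 times), Nlrp3 (4.60), Clec4e (3.64), Tlr4 (2.68), Myd88 (2.13) and Cd14 (1.82) were also higher in neutrophils in 13 of 13 pairs. These medians take pairs of the heart libraries and of the blood and heart pool together. For Clec4d the ratio ran from 2.30 to 4.48 in the heart libraries and from 5.13 to 20.5 in the blood and heart pool. Clec4n was higher in 12 of 13, the exception being CD45+ day 1, where its level in neutrophils was 0.640 of that in monocytes/macrophages. Tlr2 was higher in neutrophils in 8 of 13 and lower in 5, with ratios from 0.632 to 1.60. The classes were built from clusters of the same cells, so these ratios are a description without a test. CPM is a share of the UMIs of a sum, so the order per cell can differ. In the CD11b+ pool, neutrophil cluster 2 held 14468 Cd14 UMIs in 1038 cells, and monocyte/macrophage cluster 1 held 77484 in 1228 cells. For Trem1 the same clusters held 4171 and 1063 UMIs.

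**Figure D1:**
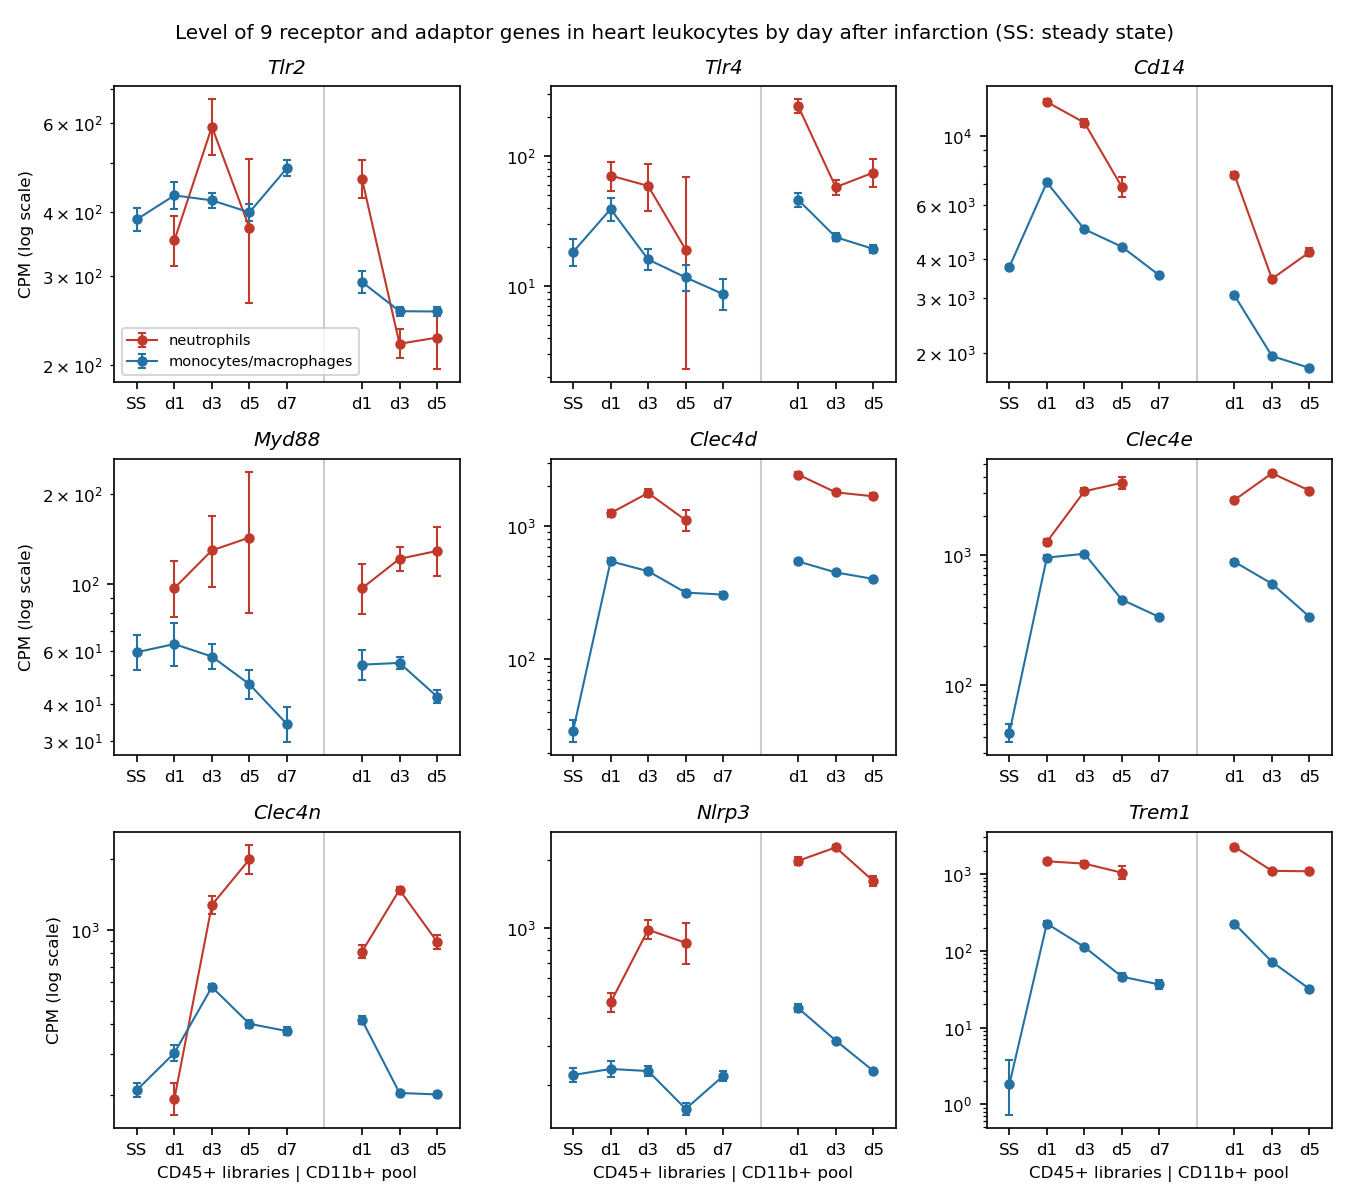
Levels of the 9 members in neutrophils (red) and monocytes/macrophages (blue) of the heart, as CPM on a log axis, at steady state (SS) and days 1, 3, 5 and 7 of the CD45+ libraries and days 1, 3 and 5 of the CD11b+ pool; bars are exact 95% Poisson intervals, which cover counting error only. Trem1 in monocytes/macrophages runs from 1.81 CPM at steady state to 226 CPM at day 1 and back to 36.4 CPM at day 7.

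Monocytes/macrophages of the uninjured heart held Cd14 and Tlr2 transcripts, while Trem1, Clec4d and Clec4e, low there, differed most in the day 1 library. There was 1 library at steady state, 1 at each later day and no replicate check, so ratios to steady state carry an exact interval for counting error only and no test. The class had 524 cells at steady state, 250 at day 1 and 570 at day 7, and these were mostly in different clusters: 506 of the first in cluster 0, led by genes that include Folr2 and Cbr2, 241 of the second in cluster 11 (Saa3, Cxcl3, Arg1) and 399 of the third in cluster 4 (Ms4a7, Gpnmb, Trem2). The ratios thus compare the class as a whole, and a change within 1 kind of cell cannot be told apart from a change in the kinds of cells. Trem1 rested on 7 UMIs at steady state (1.81 CPM) and stood at 226 CPM at day 1, a ratio of 125 (95% interval 60.2 to 312). Clec4e went from 42.9 to 954 CPM, a ratio of 22.3 (19.0 to 26.2). Clec4d went from 29.2 to 545 CPM, a ratio of 18.7 (15.4 to 22.8). These 3 stood apart from the other members. Tlr4 was 2.14 times its steady-state level at day 1 (1.55 to 2.95), Cd14 1.88 times (1.83 to 1.92) and Clec4n 1.44 times (1.30 to 1.59). Tlr2, at 387 and 432 CPM, had a ratio of 1.11 (1.03 to 1.21). The intervals of Nlrp3 (0.955 to 1.18) and Myd88 (0.860 to 1.31) included 1.

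At day 7 these 3 receptors were above the steady-state library: Trem1 20.1 times (9.61 to 50.6), Clec4d 10.5 times (8.68 to 12.8) and Clec4e 7.77 times (6.63 to 9.16). Clec4n was at 1.78 times (1.64 to 1.93) and Tlr2 at 1.26 times (1.19 to 1.34). Myd88 stood at 0.575 of steady state (0.476 to 0.695) and Tlr4 at 0.474 (0.328 to 0.683), while Cd14 (0.940) and Nlrp3 (0.989) were close to it. Neutrophil markers moved with the day 1 difference, as given above. As a share of the level in neutrophils of the same library, those markers reached 10.4% in the CD45+ day 1 monocytes/macrophages, Trem1 15.4%, Clec4d 43.5% and Clec4e 75.8%. At day 7 the same markers summed to 606 CPM in these cells, and their part in the ratios was not tested.

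The share of cells with at least 1 UMI, with each cell thinned to 2000 UMIs, also set these 3 receptors apart. Trem1 was found in 0 of 495 monocytes/macrophages at steady state, where the exact 95% binomial interval reaches 0.742%, and in 32.9% at day 1, 15.9% at day 3, 9.5% at day 5 and 5.3% at day 7. In the CD11b+ pool its share was 31.5%, 14.3% and 8.0% on day 1, 3 and 5. B cells of the day 7 library, which should lack these receptors, gave 1.6% for Trem1, 8.0% for Clec4d and 9.4% for Clec4e among 966 cells, with a median depth of 2758.5 UMIs before thinning; the steady-state and day 1 libraries held too few B cells (10 and 13) to give such a background of their own. The Clec4d share of 4.6% and the Clec4e share of 5.5% in steady-state monocytes/macrophages (29 shallower cells left out; median depth 7369 UMIs) lay below those B cell shares, against 63.8% and 78.2% at day 1. Without thinning, the B cell shares were 2.6%, 12.8% and 13.8%. Neutrophils of the heart had Trem1 in 70.0% to 93.5% of cells and Clec4e in 78.0% to 97.5%.

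Heart neutrophils held more of the 9 members per thinned cell than monocytes/macrophages did. The mean number of members detected was 4.85 to 6.09 in the 6 neutrophil groups of the heart, against 2.13 in monocytes/macrophages at steady state and 2.73 to 3.99 at later times. At least 5 members were found in 57.6% of neutrophils and 34.6% of monocytes/macrophages of CD45+ day 1, and in 92.7% and 35.6% of those of CD11b+ day 1.

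**Figure D2:**
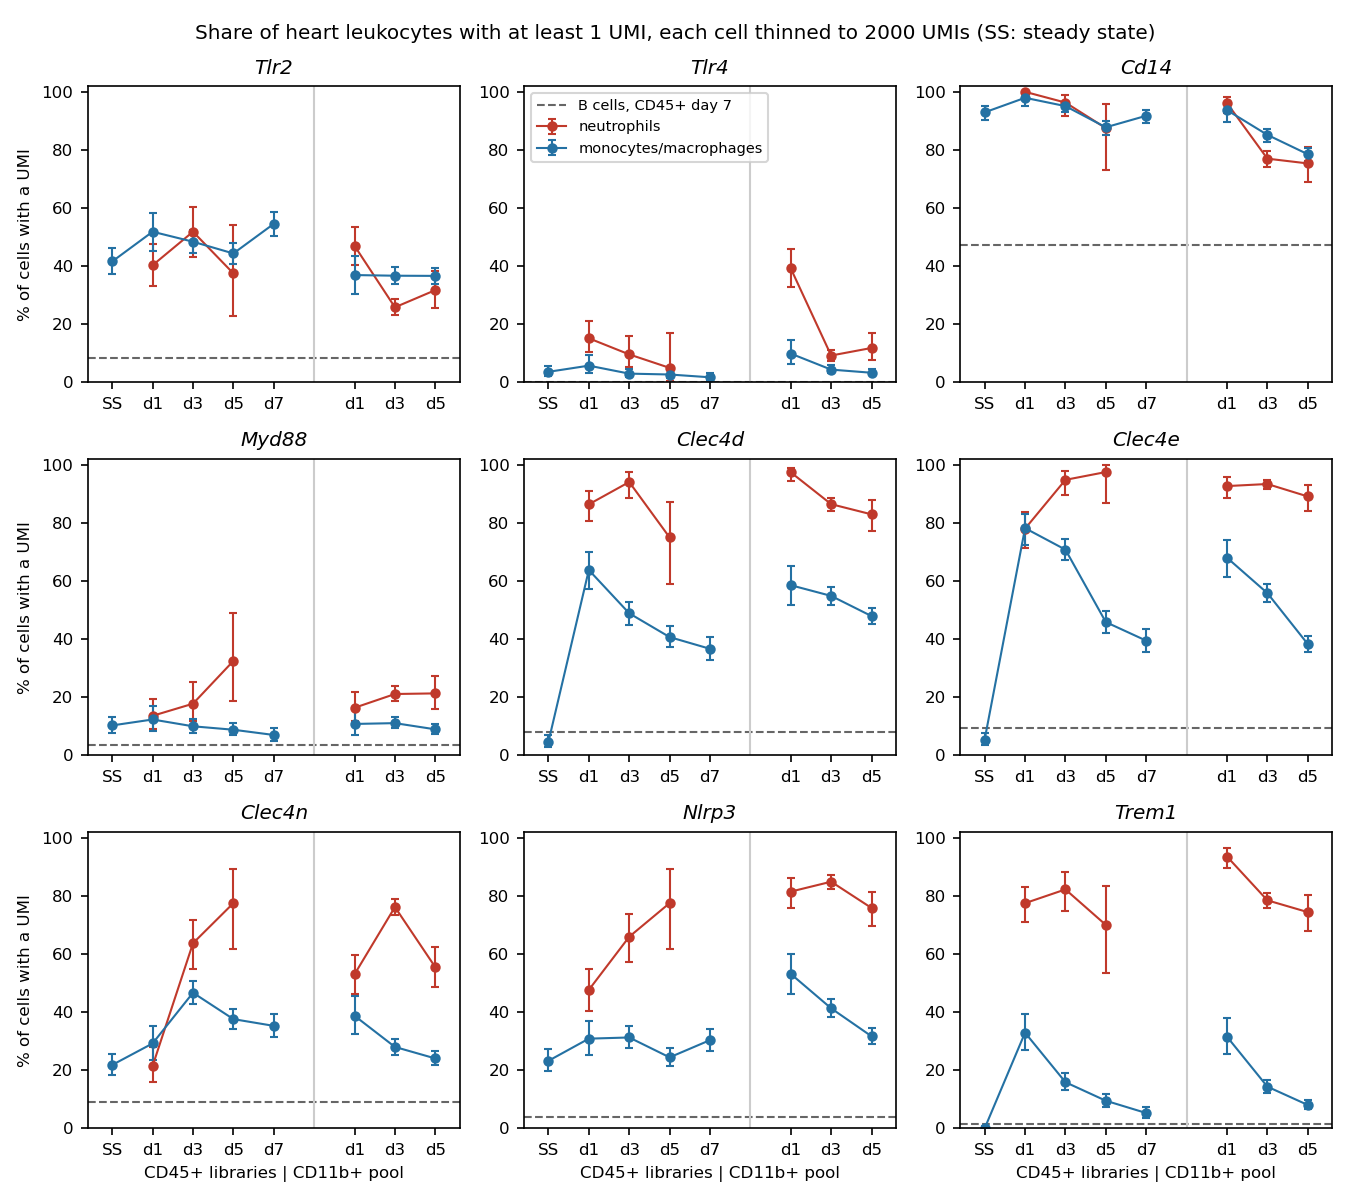
Share of cells with at least 1 UMI of each member after thinning to 2000 UMIs per cell, in percent, by class and day of the heart libraries; bars are exact 95% binomial intervals and the dashed line is the share in B cells of CD45+ day 7. Trem1 in monocytes/macrophages stands at 32.9% at CD45+ day 1 and 0% at steady state, under the 1.6% of the B cells.

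How the members changed from day 1 to day 3 and day 5 could be tested, since each of these days had a sum of counts per class from both experiments (n = 2 per day, from separate pools of mice). The 12 sums held 40 to 993 neutrophils and 223 to 1217 monocytes/macrophages. The model was edgeR's quasi-likelihood test with day and experiment as terms, and p-values were adjusted by the Benjamini-Hochberg method over all 6169 genes tested in neutrophils and 10611 in monocytes/macrophages. All 9 members passed the filter on low counts in both classes. Values in the next paragraphs are CPM scaled by the trimmed mean of M-values (TMM), the scale of the fit. Scaling by total counts alone, in place of TMM, moved the median log2 change of all genes in neutrophils by 0.68 at day 3 and 0.89 at day 5, and in monocytes/macrophages by 0.22 and 0.23, so that changes here are relative to the middle of all genes.

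In neutrophils 4 of the 9 members were lower at day 5 than at day 1 with an adjusted p under 0.05 (Tlr4, Trem1, Cd14 and Tlr2), beside 5.37% of all genes tested, and none was higher. With total counts alone 1 of the 9 was called at day 5 (Tlr4), with classes taken from each cell's own markers 0, and with no experiment term 0 in either class. At day 3, 1 of the 9 was lower (Tlr4), beside 1.96% of genes. The median log2 change of the members was -0.61 at day 3 and -1.36 at day 5, where the medians of all genes were 0.01 and -0.03. In monocytes/macrophages 6 of the 9 were lower at day 5 (Trem1, Tlr4, Clec4e, Nlrp3, Cd14 and Clec4d), beside 6.15% of genes, and 1 of the 9 was lower at day 3 (Trem1), beside 0.631%. None was higher at either day, where 4.78% of genes rose at day 5 and 0.207% at day 3. Their medians were -0.49 and -0.99, with all genes at -0.0033 and -0.015. Between day 3 and day 5 no member and 0% of genes were called lower in either class. In monocytes/macrophages 3 members and 849 genes had an unadjusted edgeR p under 0.05, and DESeq2 called 2 members. In neutrophils no member and 126 genes had such a p, and DESeq2 called no member. The share of all genes that DESeq2 called is not given beside these counts.

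Tlr4, the receptor for bacterial lipopolysaccharide, was the one member called in neutrophils at both days. Its TMM-scaled level was 133, 68.2 and 15.1 CPM on day 1, 3 and 5 in CD45+ neutrophils and 290, 44.9 and 52.2 CPM in those of the CD11b+ pool. On this scale both day 1 sums lay above all 4 later sums. In CPM without TMM, CD45+ day 1 was at 70.9 and CD11b+ day 5 at 74.7. The log2 change was -1.89 (SE 0.49; edgeR adjusted p = 0.0453) at day 3 and -2.44 (SE 0.51; edgeR adjusted p = 0.00946) at day 5. With total counts alone the day 3 change was -1.24 (edgeR adjusted p = 0.103), and with own markers the day 3 and day 5 changes were -1.38 (edgeR adjusted p = 0.682) and -2.01 (edgeR adjusted p = 0.287). In monocytes/macrophages it went from 52.1 to 17.9 and 12.5 CPM and from 43.9 to 19.7 and 16.0 CPM, again with both day 1 sums on top. There the change was -1.34 (SE 0.22; edgeR adjusted p = 0.0591) at day 3 and -1.73 (SE 0.22; edgeR adjusted p = 0.0114) at day 5. Without the CD11b+ day 3 sum the neutrophil change at day 3 was -0.88 (edgeR adjusted p = 0.815), and without the CD45+ day 5 sum the monocyte/macrophage change at day 5 was -1.50 (edgeR adjusted p = 0.0855).

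Cd14, which hands lipopolysaccharide to the Tlr4 complex, fell in both classes by day 5. In neutrophils it stood at 24107, 12741 and 5403 CPM in the CD45+ libraries and at 8991, 2691 and 2947 CPM in the CD11b+ pool. Each experiment had its highest sum at day 1. The change at day 5 was -1.85 (SE 0.52; edgeR adjusted p = 0.0416) and at day 3 it was -1.29 (SE 0.52; edgeR adjusted p = 0.205). The day 5 change was -0.85 (edgeR adjusted p = 0.152) with total counts alone and -1.21 (edgeR adjusted p = 0.738) with own markers. In monocytes/macrophages it stood at 9415, 5564 and 4695 CPM and at 2906, 1611 and 1471 CPM, a change of -0.99 at day 5 (SE 0.14; edgeR adjusted p = 0.0143). Within each experiment the order of days was the same, while the CD45+ sums were above the CD11b+ sums on every day. Without the CD45+ day 5 sum the day 5 changes were -1.45 in neutrophils (edgeR adjusted p = 0.177) and -0.91 in monocytes/macrophages (edgeR adjusted p = 0.0605).

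Tlr2, which pairs with Tlr1 or Tlr6 to bind lipopeptides, was called in neutrophils at day 5. Its levels there were 659, 682 and 294 CPM in the CD45+ libraries and 558, 171 and 158 CPM in the CD11b+ pool. On the TMM scale day 5 was the lowest day in both experiments. They differed at day 3, with a log2 change from day 1 of 0.05 in one and -1.71 in the other. In CPM without TMM, CD45+ neutrophils were lowest at day 1 (352, against 373 at day 5). Those of the CD11b+ pool were lowest at day 3 (220, against 226 at day 5). The change at day 5 was -1.54 (SE 0.45; edgeR adjusted p = 0.0446), but -0.55 (edgeR adjusted p = 0.356) with total counts alone and -1.09 (edgeR adjusted p = 0.669) with own markers. It was -1.48, -0.80 and -1.70 without CD45+ day 5, CD11b+ day 1 and CD11b+ day 5 in turn, with edgeR adjusted p-values of 0.209, 0.238 and 0.146. In monocytes/macrophages Tlr2 was at 574, 470 and 428 CPM and at 277, 211 and 210 CPM, a change of -0.41 at day 5 (SE 0.15; edgeR adjusted p = 0.121).

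Myd88, the adaptor of these receptors, did not pass the test in any contrast. It stood at 182, 150 and 113 CPM and at 116, 94.7 and 90.4 CPM in neutrophils, a day 5 change of -0.50 (SE 0.40; edgeR adjusted p = 0.490) that became 0.49 when scaled by total counts alone. In monocytes/macrophages it stood at 84.1, 63.9 and 49.7 CPM and at 51.3, 45.2 and 34.8 CPM, a change of -0.66 (SE 0.17; edgeR adjusted p = 0.0640).

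Among the C-type lectins, Clec4e (Mincle), which binds the nuclear protein SAP130 of dying cells and mycobacterial glycolipid, gave different values in the 2 classes. In monocytes/macrophages it stood at 1269, 1136 and 485 CPM in the CD45+ libraries and at 842, 497 and 276 CPM in the CD11b+ pool. The day 5 sum was the lowest of each experiment, and the change was -1.50 (SE 0.19; edgeR adjusted p = 0.0117). In neutrophils it stood at 2357, 3561 and 2830 CPM and at 3172, 3299 and 2183 CPM, where days overlapped. The neutrophil change at day 5 was -0.15 (SE 0.44; edgeR adjusted p = 0.868), and 0.89 when scaled by total counts alone.

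Clec4d, a related receptor that forms complexes with Clec4e, stood at 725, 511 and 339 CPM and at 516, 372 and 331 CPM in monocytes/macrophages. It was lower on each later day in both experiments, and its change at day 5 was -0.86 (SE 0.18; edgeR adjusted p = 0.0368). That call was lost with total counts alone (-0.60; edgeR adjusted p = 0.0734), with the 2 days compared alone (-0.83; edgeR adjusted p = 0.109), and without any 1 of CD45+ day 3, CD45+ day 5, CD11b+ day 3 or CD11b+ day 5, with changes of -0.86, -0.60, -0.86 and -1.08 and edgeR adjusted p-values of 0.0916, 0.393, 0.0842 and 0.0817. In neutrophils it stood at 2347, 2048 and 875 CPM and at 2920, 1394 and 1171 CPM, a change of -1.36 (SE 0.44; edgeR adjusted p = 0.0693).

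Clec4n (Dectin-2), which binds mannose-rich glycans, had changes of opposite sign in the 2 experiments at day 5 in both classes. In neutrophils it stood at 362, 1472 and 1570 CPM in the CD45+ libraries and at 971, 1149 and 623 CPM in the CD11b+ pool. The log2 change from day 1 to day 5 was thus 2.12 in one and -0.64 in the other. In monocytes/macrophages the 2 values were 0.10 and -1.25, from 401, 638 and 429 CPM and from 395, 169 and 166 CPM. The joint changes at day 5 were 0.65 (SE 0.55; edgeR adjusted p = 0.508) and -0.67 (SE 0.43; edgeR adjusted p = 0.319).

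Nlrp3 stood at 315, 258 and 168 CPM in CD45+ monocytes/macrophages and at 419, 262 and 191 CPM in those of the CD11b+ pool. Levels were lower at each later day in both, and the change at day 5 was -1.02 (SE 0.17; edgeR adjusted p = 0.0228). Without CD45+ day 5, CD11b+ day 3 or CD11b+ day 5 in turn it was -0.983, -1.01 and -0.995, with edgeR adjusted p-values of 0.148, 0.05003 and 0.141. It was -0.77 (edgeR adjusted p = 0.0515) with total counts alone and -0.978 (edgeR adjusted p = 0.0644) with the 2 days compared alone. In neutrophils it stood at 876, 1134 and 679 CPM and at 2385, 1774 and 1132 CPM, a change of -0.75 (SE 0.42; edgeR adjusted p = 0.311) that became 0.27 when scaled by total counts alone.

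Trem1 had the largest fitted decrease of the 9 members in monocytes/macrophages. It stood at 300, 125 and 49.2 CPM in the CD45+ libraries and at 215, 59.3 and 26.2 CPM in the CD11b+ pool. All sums of a day lay below all sums of the day before. The change was -1.57 (SE 0.20; edgeR adjusted p = 0.0423) at day 3 and -2.83 (SE 0.21; edgeR adjusted p = 0.00407) at day 5. The day 3 call was lost with total counts alone (-1.35; edgeR adjusted p = 0.0761), with the unnamed MHC class II cluster added (-1.54; edgeR adjusted p = 0.0514), and without CD45+ day 3 (-1.73; edgeR adjusted p = 0.120) or CD11b+ day 3 (-1.37; edgeR adjusted p = 0.358), and the day 5 call held without any 1 of the 6 sums. In neutrophils Trem1 stood at 2747, 1579 and 823 CPM and at 2724, 857 and 759 CPM. The 2 day 1 sums were close to each other and above the rest, and the change at day 5 was -1.79 (SE 0.44; edgeR adjusted p = 0.0211), or -1.68 (edgeR adjusted p = 0.122) without CD45+ day 5. With total counts alone it was -0.79 (edgeR adjusted p = 0.147) and with own markers -0.87 (edgeR adjusted p = 0.836).

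Markers of neutrophils fell in the monocyte/macrophage sums over the same days. As a share of their level in neutrophils they were 10.4%, 2.75% and 1.18% in the CD45+ libraries on day 1, 3 and 5 and 3.23%, 2.10% and 1.25% in the CD11b+ pool. The share for Trem1 was 15.4%, 8.19% and 4.42%, and 9.94%, 6.51% and 2.93%, above that of the markers in each of the 6. Ly6g was at 0 in CD45+ day 5, and Ngp and Camp were at 0 in CD11b+ day 1. The part of these transcripts in the changes was not tested. In neutrophils the markers themselves summed to 240740, 114010 and 67934 CPM and to 105490, 53530 and 67535 CPM. Monocytes/macrophages of the CD45+ libraries were mostly in cluster 11 at day 1 (241 cells), cluster 5 at day 3 (438) and cluster 4 at day 5 (479). Those of the CD11b+ pool were mostly in clusters 0 and 4 at day 1 (96 and 108), clusters 0 and 1 at day 3 (395 and 440) and cluster 1 at day 5 (773). Neutrophils of day 1 were also mostly in other clusters (13 of the CD45+ set, 3 of the CD11b+ set) than those of day 3 and 5 (12 and 2).

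**Figure D3:**
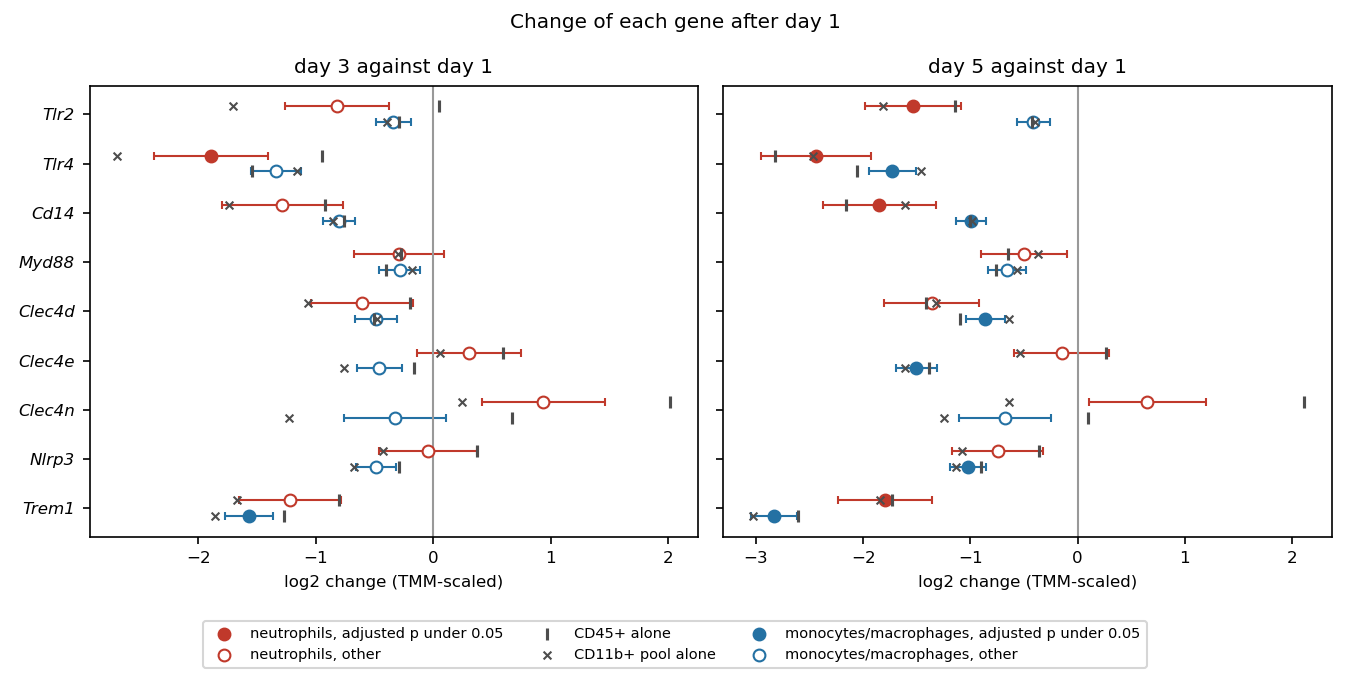
Fitted log2 change of each member at day 3 and day 5 against day 1, in neutrophils and in monocytes/macrophages, with bars of 1 SE; filled points have an edgeR adjusted p under 0.05, ticks are the CD45+ libraries alone and crosses the CD11b+ pool alone. The 6 filled points of monocytes/macrophages at day 5 run from -2.83 (Trem1) to -0.86 (Clec4d), and the ticks and crosses of Clec4n lie on opposite sides of 0 in both classes at day 5.

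No member's change differed between the classes with an adjusted p under 0.05 in a fit of all 12 sums over 10159 genes. Both classes of a day come from the same library or hashtag and the same mice. The fit had no term for this pairing and took the 12 sums as independent. Genes called in that test were 0.0197% at day 3, 0.453% at day 5 and 0% for day 5 against day 3. Clec4e at day 5 was the member with the smallest p: its change in neutrophils minus that in monocytes/macrophages was 1.32 on the log2 scale (SE 0.41; edgeR adjusted p = 0.152). At day 5, 3 members had an unadjusted edgeR p under 0.05, and DESeq2 called 1. The share of all genes is not given beside these counts, so they are no result about the members. The corresponding difference was 1.00 for Trem1 (SE 0.41; edgeR adjusted p = 0.250) and -0.72 for Tlr4 (SE 0.57; edgeR adjusted p = 0.575).

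Other genes of the same pathways were counted from 8 lists. Their calls are beside the same background, and each call named here kept its sign in all 16 alternative fits and was called in 7 to 15 of them. Of 15 further toll-like receptors and co-receptors, 12 were tested in monocytes/macrophages and 2 rose at day 5: Cd180 by 2.28 (edgeR adjusted p = 0.0342) and Tlr13, a sensor of bacterial ribosomal RNA, by 0.89 (edgeR adjusted p = 0.0491). The median of the 12 was 0.65, with Tlr2 and Tlr4 at -0.41 and -1.73 in the same fit. None of the 6 tested in neutrophils passed, with 2 at an unadjusted p under 0.05 at day 5. Of 16 other C-type lectins and phagocytic receptors, 12 were tested in monocytes/macrophages: the inhibitory receptor Clec12a rose by 1.26 at day 3 (edgeR adjusted p = 0.0484) and by 1.73 at day 5 (edgeR adjusted p = 0.00751), while the scavenger receptor Msr1 fell by 1.72 (edgeR adjusted p = 0.0116) and Clec5a fell by 1.70 (edgeR adjusted p = 0.0184) at day 5. None of the 8 tested in neutrophils passed, with 3 at an unadjusted p under 0.05 at day 3 and 1 at day 5.

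Of 20 cytosolic sensors, 2 of 12 tested fell in neutrophils at day 5: Zbp1, a sensor of Z-form nucleic acid, by 2.33 (edgeR adjusted p = 0.0427) and the RNA sensor Ifih1 by 1.88 (edgeR adjusted p = 0.0472). None of 19 passed in monocytes/macrophages, with 4 at an unadjusted p under 0.05 at day 5. Among 14 genes of toll and interleukin-1 receptor signalling, Irak3, which restrains this pathway, fell in neutrophils by 2.08 (edgeR adjusted p = 0.0189) and in monocytes/macrophages by 1.99 (edgeR adjusted p = 0.0450), and the ubiquitin-conjugating enzyme Ube2n fell in the latter by 0.72 (edgeR adjusted p = 0.0417), all at day 5. Among the ITAM adaptor and Card9 pathway genes, in monocytes/macrophages, Malt1 fell by 1.39 at day 3 (edgeR adjusted p = 0.0423) and 1.99 at day 5 (edgeR adjusted p = 0.00539) and Bcl10, its partner, fell by 0.82 at day 5 (edgeR adjusted p = 0.0357).

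Of the 12 inflammasome partners and products, 4 fell in monocytes/macrophages at day 5. Il1b stood at 11083, 4855 and 2534 CPM in the CD45+ libraries and at 5963, 2092 and 1351 CPM in the CD11b+ pool, and fell by 2.14 (SE 0.16; edgeR adjusted p = 0.00407). Il1a stood at 1059, 151 and 68.6 CPM and at 306, 67.5 and 49.0 CPM, and fell by 3.29 (SE 0.33; edgeR adjusted p = 0.00677). For both cytokines the sums of each later day were below both sums of day 1. Txnip, a Nlrp3-binding protein, fell by 1.42 (edgeR adjusted p = 0.0170) and the adaptor Pycard fell by 0.97 (edgeR adjusted p = 0.0207). At day 3, Il1a fell by 2.53 (edgeR adjusted p = 0.0423) and Il1b fell by 1.35 (edgeR adjusted p = 0.0392). In neutrophils 1 of 10 tested passed, Il1a, which fell by 1.72 at day 5 (edgeR adjusted p = 0.0229). The list's median in monocytes/macrophages at day 5 was 0.14, on the other side of 0 from its 4 called genes.

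In the Trem family, Trem2, a lipid-binding receptor of macrophages, changed in the opposite direction to Trem1. It stood at 30.8, 380 and 848 CPM in CD45+ monocytes/macrophages and at 183, 454 and 749 CPM in those of the CD11b+ pool, higher on each later day in both. It rose by 3.16 at day 5 (SE 0.65; edgeR adjusted p = 0.0359), while Trem3 fell by 2.26 (edgeR adjusted p = 0.0272). In neutrophils Trem3 fell by 1.83 (edgeR adjusted p = 0.0281), the Trem1 ligand Pglyrp1 fell by 2.06 (edgeR adjusted p = 0.0204) and Treml2 passed with an edgeR adjusted p of 0.0370 but had no UMI in the CD45+ day 5 sum. Of 10 endogenous ligands, Lgals3 fell in neutrophils at day 5 by 1.62 (edgeR adjusted p = 0.0346). In monocytes/macrophages the matrix proteoglycan Vcan fell by 1.93 at day 3 (edgeR adjusted p = 0.0431) and 3.70 at day 5 (edgeR adjusted p = 0.00407), Fn1 fell by 1.58 (edgeR adjusted p = 0.0257) and S100a8 fell by 4.32 (edgeR adjusted p = 0.0493) at day 5. S100a8 is also 1 of the neutrophil markers whose sum in these cells is given above.

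In the blood and heart pool every member was detected in both classes under each of the 7 hashtags, and levels are given as they stand because no hashtag could be tied to a tissue or operation. Hashtags held 402 to 1137 neutrophils and 279 to 736 monocytes/macrophages. In neutrophils of hashtags 1 to 7, Cd14 stood at 68.2, 52.4, 45.7, 80.4, 71.4, 509 and 270 CPM. Clec4n stood at 48.3, 16.5, 27.0, 20.2, 34.6, 201 and 501 CPM in the same order. Both were highest in hashtags 6 and 7. Trem1 ran from 121 to 324 CPM, Tlr4 from 37.3 to 101.6 and Tlr2 from 60.0 to 146. Clec4d (723 to 1251 CPM), Clec4e (287 to 451), Nlrp3 (149 to 187) and Myd88 (205 to 259) varied by at most 1.73 times over the 7 hashtags. Hashtags 6 and 7 were also the highest for Trem1, Tlr4 and Clec4e, though for Clec4e the lower of them was only 1.04 times the next hashtag.

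In monocytes/macrophages of the same hashtags, Cd14 stood at 48.8, 27.2, 31.5, 27.2, 43.7, 261 and 238 CPM and Clec4n at 25.0, 9.22, 14.9, 15.3, 21.03, 152 and 135 CPM. Trem1 stood at 8.31, 13.3, 11.6, 15.02, 16.7, 56.7 and 53.8 CPM. Hashtags 6 and 7 were again above the other 5 for all 3 genes, and also for Clec4d, Clec4e, Tlr2 and Tlr4. For Tlr2 the lower of them was only 1.04 times the next hashtag. Clec4d ran from 37.7 to 209 CPM, Clec4e from 60.0 to 220, Tlr2 from 46.6 to 132, Tlr4 from 10.7 to 37.9, Nlrp3 from 32.8 to 44.7 and Myd88 from 108 to 165. The monocyte/macrophage cluster of 108 cells with a median of 23.5 Ly6G antibody UMIs is counted here. It held Trem1 at 115 CPM and Clec4d at 311 CPM. The mean number of members per thinned cell was 2.34 to 3.22 in neutrophils and 0.638 to 1.55 in monocytes/macrophages.

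**Figure D4:**
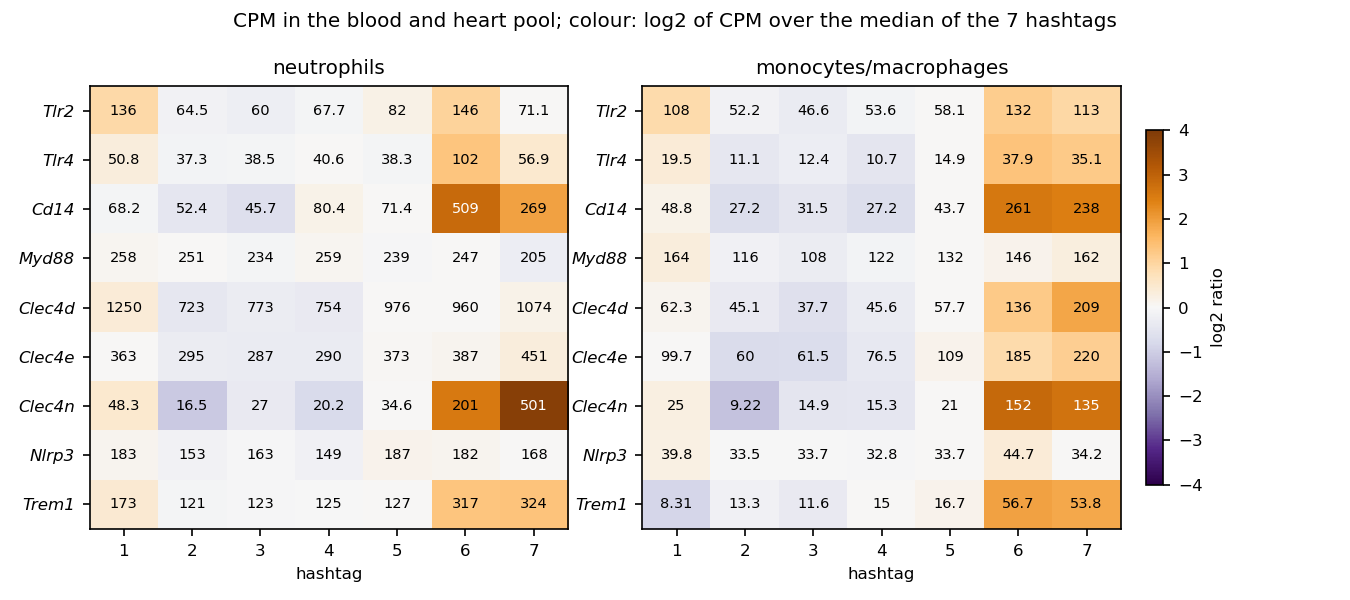
Level of each member in neutrophils and monocytes/macrophages under the 7 hashtags of the pool of blood and heart cells, written as CPM in each cell and coloured by the log2 ratio to the median of the 7 hashtags; the hashtags are not assigned to tissue or operation. Cd14 reaches 509 CPM in neutrophils of hashtag 6 and Clec4n 501 CPM in those of hashtag 7, with hashtags 1 to 5 at 80.4 CPM or less for both.

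The members did not share a single pattern. Over the 28 class sums of at least 30 cells, Pearson's r of log2(CPM + 1) between pairs of members had a median of 0.61 over 36 pairs, was above 0.8 in 8 and below 0 in 5. The closest pairs were Cd14 with Tlr2 (0.95), Clec4e with Trem1 (0.92) and Clec4d with Trem1 (0.92), and the 5 pairs below 0 all contained Myd88, down to -0.65 with Tlr2. The sums share libraries, classes and chemistry, so these values only describe them. They also come from 3 experiments that differ in level. Cd14 ran from 27.2 CPM in monocytes/macrophages of the blood and heart pool to 12867 CPM in CD45+ neutrophils. The part of such differences between experiments in r was not tested. Among 2729 genes with a mean of at least 50 CPM, the 2 most like Trem1 were Lmnb1 and Slc16a3 (both 0.97). For Clec4e they were Acod1 (0.97) and Slc7a11 (0.96), and for Clec4d Arg2 (0.96) and Lmnb1 (0.95). The nearest to Cd14 were the chemokines Ccl4 and Cxcl2 (both 0.99), to Clec4n Cxcl2 and Ninj1 (both 0.93), and to Tlr2 Cd14 and Crem (both 0.95). Nlrp3 was nearest to Gadd45b (0.98) and Ndel1 (0.97), Myd88 to Lbr and Pi16 (both 0.96), and Tlr4 to Cd164 (0.92) and Tnfrsf23 (0.87).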

How the data were processed

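The authors deposited UMI counts per gene and cell barcode, unnormalized, as 10x matrices for 7 libraries: 5 of CD45+ cells, and 2 pools stained with antibodies, whose hashtag and surface antibody UMI counts stand in the same files. Cell Ranger 3.0.2 made both pools per the file headers; its version for the CD45+ libraries is not given in the sources used here. The submitters' processing notes name the build as mm10, with no annotation release.

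Cells needed 200 or more genes and no more than 10% of UMIs from mitochondrial genes. Scrublet doublets (0 to 6 per CD45+ library) and barcodes with several hashtags or none were dropped, and cells were clustered per experiment with scanpy 1.11.5 (2000 variable genes, 30 principal components, Leiden resolution 0.5). Clusters were named from marker lists; a rule for ties between 2 classes (more markers present in at least 50% of cells) was set after the clusters were seen and named 3 monocyte/macrophage clusters: 1 of 246 cells, which holds most of that class at CD45+ day 1, and 2 of 225 and 222 cells in the CD11b+ pool, the last led by cell cycle genes. A cluster of 313 cells of the CD11b+ pool led by MHC class II genes stayed unnamed. Counts were summed per class and library or hashtag where at least 30 cells were present, which left out the neutrophils of steady state (7 cells) and day 7 (28 cells). The sums are not single mice: each is a pool of 3 to 5.

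Days 1, 3 and 5 were compared with edgeR 4.0.16 in R 4.3.3 (filterByExpr, TMM, glmQLFit and glmQLFTest with day and experiment as terms; Benjamini-Hochberg adjustment over all genes tested; called at an adjusted p under 0.05), with 2 residual degrees of freedom per class and a biological coefficient of variation of 30.9% in neutrophils and 19.7% in monocytes/macrophages. Tested on simulated data with 200 genes changed by 2 on the log2 scale, day 5 against day 1, the fit recovered 16.5% of them in neutrophils (6019 genes) and 58.5% in monocytes/macrophages (10566 genes), with 0% false calls. The simulation gave all genes of both classes the same spread and held no difference between experiments. Its rates therefore need not hold for the real counts. Experiment stands for the sort, the chemistry and the mouse pools together, and it is the block that pairs the sums of a day series. Cells were thinned to 2000 UMIs for shares. Intervals (95%, exact) cover counting error only. Alternatives were size factors by relative log expression, total counts, DESeq2 1.42.0, no filter on low counts, no experiment term, the 2 days compared alone, classes from each cell's own markers, clusters without the members, a mitochondrial limit of 20%, the unnamed cluster added (chosen after seeing the data) and each sum left out.

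The members and the gene lists were chosen with earlier results of these data known. From each list the text names every gene that passed the test where they are 4 or fewer, and otherwise the 2 highest and 2 lowest changes; a result that is withheld is not reported here. For each member the 2 genes with the highest correlation are named.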

Additional observations from a re-analysis of the deposited data

Results flagged for a closer look

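Clec12a, an inhibitory C-type lectin receptor from the list of other lectins, was the gene among the 9 members and the 8 lists whose change differed between the classes by a test of the difference itself. Its change from day 1 to day 5 in neutrophils minus that in monocytes/macrophages was -2.30 on the log2 scale (SE 0.40; edgeR adjusted p = 0.0366). That fit took the sums of the 2 classes as independent, although they share libraries, hashtags and mice. TMM-scaled levels of Clec12a in neutrophils were 141, 84.5 and 113 CPM on day 1, 3 and 5 of the CD45+ libraries and 89.7, 34.4 and 55.3 CPM in the CD11b+ pool. In monocytes/macrophages they were 80.7, 219 and 303 CPM and 61.6, 131 and 182 CPM. The Clec12a difference was called in 11 of 15 alternatives, with values from -2.49 to -1.54 and adjusted p-values from 1.1e-08 to 0.675.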

How the results depend on the processing

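Each of the 12 member changes called kept its sign in all 16 alternatives. With no replicate block (the experiment term that pairs the sums left out), 0 members were called in every contrast, and 0 genes at day 5 against day 1 in either class. Total counts alone in place of TMM called 0 members in neutrophils at day 3, 1 at day 5 and 0 in monocytes/macrophages at day 3. In neutrophils at day 5 it called 1102 genes higher and 89 lower, where TMM called 113 and 331, and at day 3 357 and 49 against 35 and 121. In monocytes/macrophages at day 5 it called 718 and 366 against 507 and 653, and for the difference at day 5 705 and 24 against 27 and 19. Classes from each cell's own markers called 0 members in neutrophils at day 3 and 0 at day 5 (24 genes in place of 444), and 3 in monocytes/macrophages at day 3. For monocytes/macrophages at day 3 DESeq2 and no filter each called 3 members, and the unnamed cluster added gave 0; for day 5 against day 3 DESeq2 and no filter called 2 each and the 2 days alone 3. For the difference at day 5, total counts called 2 members and DESeq2 and no filter 1 each. The share of all genes called is not given for DESeq2, no filter, the unnamed cluster added, the 2 days alone or the fits with 1 sum left out. Counts of members under those settings describe the settings and are no result about the members. Causes were not tested.

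Signs turned only among changes that were not called in the main fit. The sign of Clec4n in monocytes/macrophages at day 3 hung on single sums. Its change was 0.55 without CD11b+ day 1 and -1.02 without CD45+ day 1, against -0.33 in the main fit. In neutrophils at day 3 total counts gave 0.04 for Clec4d, 0.38 for Myd88 and 0.60 for Nlrp3, own markers 0.13 for Myd88 and 0.54 for Nlrp3, and the 2 days alone 0.019 for Nlrp3. At day 5 total counts gave 0.89 for Clec4e, 0.49 for Myd88 and 0.27 for Nlrp3, and own markers 0.32 for Clec4e and 0.12 for Myd88; for day 5 against day 3 total counts gave 0.13 for Clec4n and 0.11 for Myd88. With no replicate block Clec4n in monocytes/macrophages at day 3 was 0.019. For the difference between classes at day 3, own markers gave 0.18 for Cd14, 0.67 for Clec4d, 0.034 for Tlr2 and 0.015 for Tlr4, total counts 0.29 and clusters without the members 0.0043 for Clec4d, and Myd88 was -0.064 with relative log expression and -0.082 with DESeq2. At day 5 Clec4d was 0.23 with total counts and 0.14 with own markers. For day 5 against day 3 Clec4n was 0.43 with total counts, 0.014 with no replicate block and 0.041 with own markers, Myd88 -0.036 with no replicate block and -0.0014 with clusters without the members, and total counts gave 0.16 for Nlrp3 and 0.16 for Tlr4.

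Leaving out 1 sum at a time, the count of members called ran from 0 to 3 (day 3) and 1 to 5 (day 5) in neutrophils, the lowest without CD11b+ day 3 and CD45+ day 5. It ran from 0 to 6, 2 to 8 and 0 to 4 (day 3, day 5, day 5 against day 3) in monocytes/macrophages, and from 0 to 2 for the differences at day 3 and day 5. In neutrophils, log2 changes that turned ran at day 3 Clec4e -0.0072 to 0.63, Nlrp3 -0.41 to 0.31; at day 5 Clec4e -0.45 to 0.19, Clec4n -0.35 to 1.88; for day 5 against day 3 Clec4n -1.41 to 0.44, Tlr2 -1.41 to 0.029, Tlr4 -1.78 to 0.11. In monocytes/macrophages, log2 changes that turned ran at day 3 Clec4n -1.02 to 0.55; at day 5 Clec4n -1.31 to 0.25; for day 5 against day 3 Clec4n -0.87 to 0.33, Tlr2 -0.13 to 0.020. For the difference between the classes, log2 changes that turned ran at day 3 Cd14 -0.92 to 0.037, Clec4d -0.56 to 0.30, Myd88 -0.16 to 0.21, Tlr2 -1.23 to 0.24, Tlr4 -1.56 to 0.58; at day 5 Myd88 -0.057 to 0.17, Nlrp3 -0.11 to 0.42, Tlr4 -1.71 to 0.52; for day 5 against day 3 Clec4n -1.02 to 0.63, Myd88 -0.19 to 0.11, Tlr4 -1.59 to 0.36.

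Depth limited the smallest group most: 40 neutrophils with 104690 UMIs stood for CD45+ day 5. Of 252 member levels, own markers moved 78 outside their counting interval and 7 by over 1.5 times (largest 2.08), and 3 other settings moved 7 to 14 outside it and none by over 1.5 times. Shares at other depths or not thinned moved outside their interval in 201 to 242 of 261 to 270 values.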

Other observations

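In the pool of blood and heart cells, the neutrophils of hashtags 6 and 7 were split in a way the other hashtags were not. Of the 541 cells of 1 neutrophil cluster, 258 carried hashtag 6 and 250 hashtag 7, with 33 from the other 5. Cd14 stood at 709 CPM in that cluster, against 74.1 and 59.2 CPM in the other two neutrophil clusters, and Clec4n at 580 CPM against 35.9 and 16.0. Tlr4 stood at 121 CPM against 41.6 and 41.8, and Trem1 at 481 CPM against 130 and 144, while Nlrp3 (193, 167 and 164 CPM) and Clec4e (435, 320 and 332 CPM) were nearer to each other. Cells and genes that made the clusters also give these values, so they describe the clusters and test nothing.

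Ranked over the 7 hashtags, the second-highest level of Cd14 was 3.35 times the third-highest in neutrophils and 4.88 times in monocytes/macrophages, the highest pair being hashtags 6 and 7 each time. For Clec4n these ratios were 4.16 and 5.38, and for Trem1 1.84 and 3.23, with the same highest pair. For Clec4d the ratio was 2.18 in monocytes/macrophages, with hashtags 7 and 6 highest, and 1.10 in neutrophils, with hashtags 1 and 7 highest. The hashtags carry no tissue or operation in the labels, and no group was formed from them. The same ranking was not made for all genes.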
